A study of Mus musculus with 6 samples.

Results

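The genes described are the 5 mouse Fc gamma receptor genes, Fcgr1, Fcgr2b, Fcgr3, Fcgr4 and Fcer1g, taken as the entries of the gene count table that carry these names. They are 5 of 41972 entries, each name stands on 1 entry, and all 5 passed the filter on low counts, which kept 12740 entries for testing. Poly(A)-selected RNA of bone-marrow-derived macrophages was counted in 6 libraries, with 2 biological replicates in each of 3 groups. Macrophages were grown for 6 days in L-929-conditioned medium, a source of M-CSF, from the marrow of wild-type C57BL/6 males aged 6 weeks. The first group was then kept for 6 h with 20 µg per well of LD-F1 extracellular vesicles (EVs), shed by the mould Aspergillus flavus, the second with 20 µg per well of LD-F1_b EVs, and the third with PBS. The titles call LD-F1 and LD-F1_b strains of the mould, with no meaning given for the suffix.

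Fc gamma receptors bind the constant part of IgG and let macrophages take up antibody-coated particles and respond to immune complexes. In the mouse, the receptors encoded by Fcgr1, Fcgr3 and Fcgr4 are activating and reach the cell surface with a signalling partner, the common gamma chain encoded by Fcer1g, whose tyrosine motif recruits Src-family kinases and Syk. Fcgr2b encodes the inhibitory receptor, whose own tyrosine motif recruits the lipid phosphatase SHIP1, so the balance of activating to inhibitory receptors sets how strongly an immune complex is answered.

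Fcgr3 and Fcgr2b are close copies in part, which bears on how reads could be assigned between them, so the stretch they share is shown first. The longest run of identical coding bases of Fcgr3 and Fcgr2b is 129 bases long and spans the end of exon 3 and the start of exon 4 of both GENCODE transcripts (GRCm38). It covers coding positions 263 to 391 of Fcgr3 (chr1:171054167-171057792, minus strand) and 278 to 406 of Fcgr2b (chr1:170966674-170968081, minus strand), counted from the first base of the start codon.
Fcgr3 and Fcgr2b, shared run: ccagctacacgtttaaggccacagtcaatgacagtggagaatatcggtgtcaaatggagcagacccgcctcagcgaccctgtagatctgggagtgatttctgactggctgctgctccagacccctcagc
Over the 791 aligned coding bases the 2 genes were 80.5% identical, against 56.0% to 62.9% for the other pairs of receptor genes. Of the windows of 50 coding bases, 166 were identical between the 2 genes, 22.0% of the 755 windows of Fcgr3 and 17.0% of the 974 windows of Fcgr2b. At 100 bases, 44 windows were identical, 6.24% of those of Fcgr3. Fcgr1, Fcgr4 and Fcer1g shared 0 windows of 50 bases with another member. No source used here gives how multi-mapping reads were treated, so counts of Fcgr3 and Fcgr2b are uncertain to the extent that reads fell in such windows.

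The promoters of the 3 activating receptor genes are shown because motifs of factors among the regulators described further on lie in them. These are the 250 bases before the annotated start (RefSeq, GRCm38.p6), 5′ to 3′ on the strand of the gene, with the motif matches in capitals.
Fcgr1 (chr3:96293970-96294219, minus strand): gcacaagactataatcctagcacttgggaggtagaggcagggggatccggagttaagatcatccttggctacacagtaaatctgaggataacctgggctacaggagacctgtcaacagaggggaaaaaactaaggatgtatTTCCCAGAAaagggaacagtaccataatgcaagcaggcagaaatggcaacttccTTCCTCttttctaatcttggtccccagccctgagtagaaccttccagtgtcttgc
Fcgr3 (chr1:171059404-171059653, minus strand): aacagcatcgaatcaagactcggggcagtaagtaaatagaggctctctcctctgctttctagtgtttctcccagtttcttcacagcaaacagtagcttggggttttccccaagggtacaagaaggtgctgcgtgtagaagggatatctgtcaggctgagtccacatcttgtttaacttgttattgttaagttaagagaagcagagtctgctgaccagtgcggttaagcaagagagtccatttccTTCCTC
Fcgr4 (chr1:171018676-171018925, plus strand): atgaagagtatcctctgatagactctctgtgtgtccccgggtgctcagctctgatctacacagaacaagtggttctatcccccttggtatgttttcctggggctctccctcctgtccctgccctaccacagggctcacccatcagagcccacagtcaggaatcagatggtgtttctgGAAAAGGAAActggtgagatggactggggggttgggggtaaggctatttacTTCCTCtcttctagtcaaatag
The motifs searched, on both strands, were GAGGAA, the core bound by PU.1, TTCNNNGAA, the GAS element, and GAAA repeated after any 2 bases, the ISRE bound by interferon regulatory factors. No match overlapped another. GAGGAA was found on the strand opposite to the gene (as TTCCTC) in each of these promoters, with its first base 55 bases before the start in Fcgr1, 6 in Fcgr3 and 22 in Fcgr4. Fcgr3 has a second annotated start that moves its match to 15 bases. The GAS match of Fcgr1 began 109 bases and the ISRE match of Fcgr4 73 bases before the start. In the same window, GAGGAA was found in 23.3%, the GAS letters in 7.02% and the ISRE letters in 2.98% of all 32851 promoters. The windows of Fcgr2b and Fcer1g held 0 matches to the 3 motifs. A match describes the letters only.

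Libraries held 13722215 to 15277997 counts, and replicates correlated with Pearson's r of 0.984 (LD-F1), 0.988 (LD-F1_b) and 0.991 (PBS) in log2 CPM (counts scaled to a common library total with TMM factors). The macrophage genes Adgre1 (5944 to 6463 counts), Csf1r (16062 to 20579) and Cd68 (7495 to 10460) were abundant in every library, while Cd163 had 0 counts and Mertk 1 to 10. Of markers of other cells that use Fc receptors, Ly6g and S100a9 (neutrophils), Ncr1 (NK cells), Fcer1a and Ms4a2 (mast cells and basophils), and Ms4a1 (B cells) had 0 counts. Other markers of these lists had counts. Those with 0 counts in every library were 5 of 13 neutrophil and 7 of 11 NK and T cell markers. For mast cells and basophils they were 6 of 10, and for B cells 2 of 8. Ighm, a B cell marker, had 556 to 711. Since these are bulk samples, fewer cells of a type and less RNA per cell cannot be told apart. The p-values rest on the spread between 2 replicates a group, pooled over groups and drawn toward that of other genes.

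Per length of transcript, the order of the members was the same in all 3 groups. Fcer1g stood highest, followed by Fcgr3, Fcgr4, Fcgr2b and Fcgr1, in RPKM (TMM-scaled CPM per kilobase of the gene length in the table). Fcer1g averaged 397 ± 1.42 RPKM with LD-F1 EVs, 406 ± 23.4 with LD-F1_b EVs and 361 ± 2.02 with PBS (SD, n = 2 each, here and for the other members). Fcgr3 averaged 127 ± 5.09, 166.6 ± 4.73 and 197.7 ± 1.80 RPKM in the same groups. Fcgr4 averaged 37.3 ± 1.13, 43.5 ± 1.72 and 43.6 ± 4.15 RPKM. Neighbours in this order were separated by more than their spread in every group. Fcgr2b averaged 6.96 ± 0.300 RPKM with LD-F1 EVs, 6.64 ± 0.0918 with LD-F1_b EVs and 7.34 ± 0.552 with PBS. Its length in the table, 5639 bases, is longer than that of its consensus coding transcripts (1462 and 3544 bases). With those lengths it came to 10.6 to 28.3 RPKM over the groups and kept its place in the order. Fcgr1 was lowest, at 1.46 ± 0.605, 1.60 ± 0.0259 and 2.29 ± 0.842 RPKM.

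**Figure D1:**
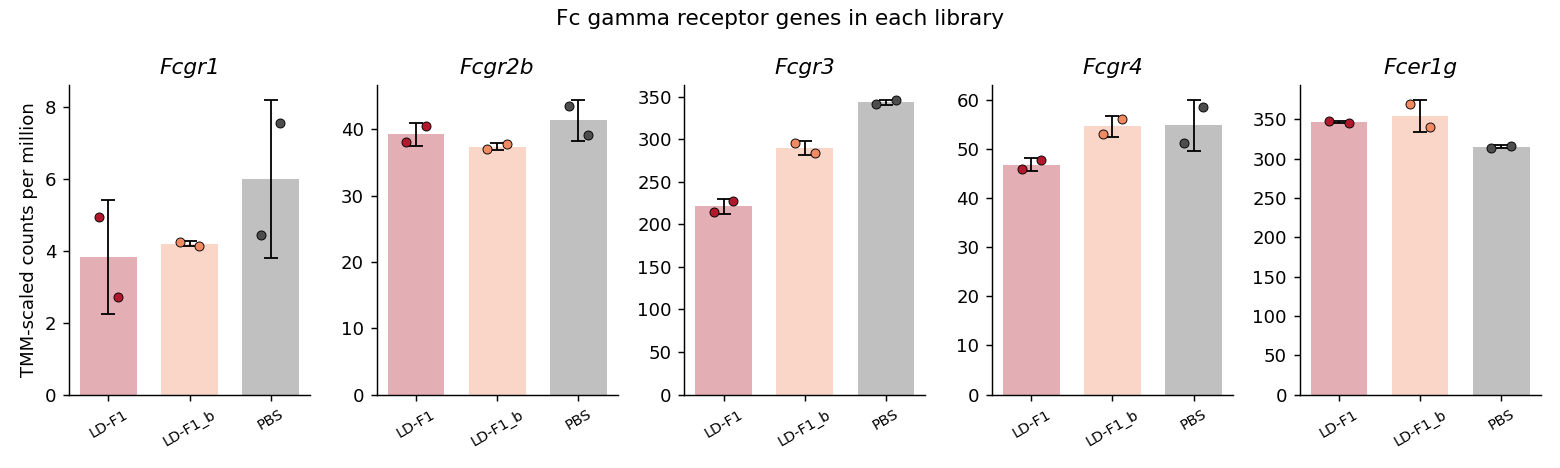
TMM-scaled CPM of the 5 genes (bars, mean; whiskers, SD; points, the 2 libraries of each group) for LD-F1, LD-F1_b and PBS. Fcgr3 is the gene whose 3 groups separate in every library, at 215 and 227 CPM with LD-F1 EVs, 295 and 283 with LD-F1_b EVs, and 341 and 345 with PBS.

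Fcgr3 was the only member called by edgeR at an adjusted p under 0.05, and only for LD-F1 against PBS. It fell by 35.6% with LD-F1 EVs relative to PBS, and its level with LD-F1_b EVs lay between the other groups. The other members were not called, which does not show that they were unchanged. For LD-F1 against PBS, the interval of Fcgr1 included the log2 fold change of Fcgr3. The intervals of Fcgr2b, Fcgr4 and Fcer1g lay above that value. Fcgr3 encodes the low-affinity activating receptor FcγRIII, the activating receptor for complexes of mouse IgG1. On the C57BL/6NJ positions of the table its entry (MGP_C57BL6NJ_G0017142) lies on the minus strand at chr1:182662753-182707677. It had 2866 and 3196 counts with LD-F1 EVs, 4242 and 4101 with LD-F1_b EVs, and 5226 and 5483 with PBS. On the CPM scale these were 215 and 227 with LD-F1 EVs, 295 and 283 with LD-F1_b EVs, and 341 and 345 with PBS. Both LD-F1 libraries lay below both LD-F1_b libraries, and these below both PBS libraries. For LD-F1 against PBS, both libraries lay below both for 29.6% of tested genes. Of all tested genes, 934 (7.33%) showed that order in every library.

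Against PBS, Fcgr3 fell with LD-F1 EVs by 0.63 ± 0.08 on the log2 scale (SE; 95% interval -0.81 to -0.46; edgeR quasi-likelihood test with Benjamini-Hochberg adjustment over 12740 genes, adjusted p = 0.000161). It was 1 of 5 members called at an adjusted p under 0.05 in that comparison, against 21.2% of all tested genes, 9.87% called lower and 11.4% called higher. A lower log2 fold change than that of Fcgr3 was found for 1130 genes (8.87%). The call held in each of the 13 other settings tried, with log2 fold changes of -0.74 to -0.60. With LD-F1_b EVs the log2 fold change against PBS was -0.25 ± 0.08 (95% interval -0.42 to -0.07). It did not pass the edgeR test after adjustment (adjusted p = 0.0754), although both libraries lay below both PBS libraries, as for 30% of tested genes. It was called with library totals as the scaling (-0.32, edgeR adjusted p = 0.0223), with LD-F1 left out of the fit (-0.25, adjusted p = 0.00202), and without either LD-F1 replicate.

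Between the EV groups, Fcgr3 was 0.39 ± 0.08 above LD-F1 in LD-F1_b on the log2 scale (95% interval 0.21 to 0.57). This difference did not pass the edgeR test after adjustment either (adjusted p = 0.0724). The same comparison called 0.424% of tested genes, and both LD-F1_b libraries lay above both LD-F1 libraries for 17%. It was called without the filter on low counts (0.39, edgeR adjusted p = 0.00989), by DESeq2 (0.39, adjusted p = 0.00998), and without LD-F1 replicate 1 (0.34, adjusted p = 0.00305) or LD-F1 replicate 2 (0.43, adjusted p = 0.000848). Of the 5 members, edgeR called 0 in either comparison of LD-F1_b, against 11% of all tested genes for LD-F1_b against PBS. At an unadjusted p under 0.05 there was 1 member in each, Fcgr3, beside 3142 of the 12740 tested genes for LD-F1_b against PBS and 1119 for LD-F1_b against LD-F1. DESeq2 called 0 members among its 1257 calls for LD-F1_b against PBS, and 1 among its 96 calls between the EV groups. Called genes made up 6.44% (higher) and 4.54% (lower) of those tested for LD-F1_b against PBS, and 0.0157% (higher) and 0.408% (lower) for LD-F1_b against LD-F1. The comparisons with PBS share the PBS libraries, and those that involve LD-F1_b share its libraries.

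**Figure D2:**
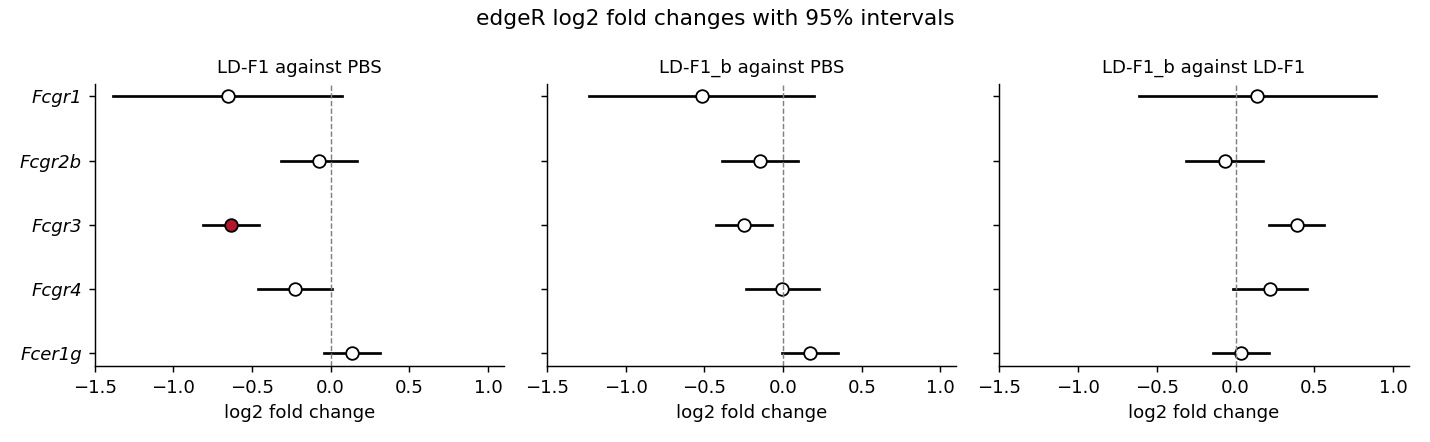
Log2 fold changes of the 5 genes (points) with 95% intervals (lines) from 1 edgeR fit of 6 libraries, in the panels LD-F1 against PBS, LD-F1_b against PBS and LD-F1_b against LD-F1. The filled point marks the call at an adjusted p under 0.05, Fcgr3 at -0.63 for LD-F1 against PBS.

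Fcgr4 encodes FcγRIV, an activating receptor of intermediate affinity for IgG2a and IgG2b. Its entry (MGP_C57BL6NJ_G0017141) lies on the plus strand at chr1:182623845-182634676, between Fcgr2b and Fcgr3. It had 45.8 and 47.8 CPM with LD-F1 EVs, 53.1 and 56.1 with LD-F1_b EVs, and 51.1 and 58.5 with PBS. The LD-F1 libraries lay below all other libraries, and LD-F1_b and PBS overlapped. Both LD-F1 libraries lay below both PBS libraries for 29.6% of tested genes, and both LD-F1_b libraries above both LD-F1 libraries for 17%. Its log2 fold change was -0.23 ± 0.11 for LD-F1 against PBS (95% interval -0.46 to 0.01; edgeR adjusted p = 0.163). The call depended on the scaling, since with library totals alone the value was -0.33 (edgeR adjusted p = 0.0428). For LD-F1_b against PBS it was -0.01 ± 0.11 (95% interval -0.24 to 0.23; edgeR adjusted p = 0.984). For LD-F1_b against LD-F1 it was 0.22 ± 0.11 (95% interval -0.01 to 0.46; edgeR adjusted p = 0.604).

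Fcgr1 encodes FcγRI, the high-affinity receptor, which is known as a target of interferon gamma in macrophages. Its entry (MGP_C57BL6NJ_G0028034) lies apart from the others, on the minus strand at chr3:100653575-100664590. Its counts were low, 66 and 38 with LD-F1 EVs, 61 and 60 with LD-F1_b EVs, and 68 and 120 with PBS. The replicates of LD-F1 and of PBS differed widely, and these groups overlapped once the counts were scaled (4.95 and 2.70 CPM with LD-F1 EVs, 4.44 and 7.56 with PBS). The LD-F1_b libraries, at 4.24 and 4.15 CPM, lay just below both PBS libraries, as for 30% of tested genes. The log2 fold change was -0.65 ± 0.33 for LD-F1 against PBS (95% interval -1.38 to 0.07; edgeR adjusted p = 0.194) and -0.52 ± 0.33 for LD-F1_b against PBS (95% interval -1.23 to 0.20; edgeR adjusted p = 0.369). The first value was sensitive to single libraries of both groups, at -1.15 without LD-F1 replicate 1 and -0.22 without PBS replicate 2. For LD-F1_b against LD-F1 it was 0.14 ± 0.35 (edgeR adjusted p = 0.954). At this depth, changes of the size seen for Fcgr3 lie inside the intervals of both comparisons with PBS.

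Fcgr2b, the gene of the inhibitory receptor FcγRIIB, passed no test. Its entry (MGP_C57BL6NJ_G0017140) lies on the minus strand at chr1:182563068-182581438. It had 38.1 and 40.5 CPM with LD-F1 EVs, 37.1 and 37.8 with LD-F1_b EVs, and 43.6 and 39.2 with PBS. The LD-F1_b libraries lay below those of both other groups, while LD-F1 and PBS overlapped. Of all tested genes, 30% had both LD-F1_b libraries below both PBS libraries and 17% had them below both LD-F1 libraries. The log2 fold change was -0.08 ± 0.11 for LD-F1 against PBS (95% interval -0.32 to 0.17; edgeR adjusted p = 0.688), -0.14 ± 0.11 for LD-F1_b against PBS (-0.39 to 0.10; edgeR adjusted p = 0.470) and -0.07 ± 0.11 for LD-F1_b against LD-F1 (-0.31 to 0.17; edgeR adjusted p = 0.917). The interval for LD-F1 against PBS lies wholly above the -0.63 of Fcgr3.

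Fcer1g, which encodes the common gamma chain, also passed no test. Its entry (MGP_C57BL6NJ_G0017150) lies on the minus strand at chr1:182893959-182898627. It had 347 and 346 CPM with LD-F1 EVs, 369 and 340 with LD-F1_b EVs, and 314 and 317 with PBS. All 4 EV libraries lay above both PBS libraries, an arrangement that 29.9% of tested genes showed for LD-F1 and 30.4% for LD-F1_b. Its log2 fold change was 0.14 ± 0.08 for LD-F1 against PBS (95% interval -0.04 to 0.31; edgeR adjusted p = 0.275) and 0.17 ± 0.08 for LD-F1_b against PBS (95% interval -0.01 to 0.35; edgeR adjusted p = 0.230). With LD-F1 left out of the fit the second value was called (0.17, edgeR adjusted p = 0.0359), as it was without either LD-F1 replicate. For LD-F1_b against LD-F1 it was 0.03 ± 0.08 (edgeR adjusted p = 0.953).

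Ratios between members within a library need no scaling between libraries, and with 2 libraries a group they are given as descriptions with no test. Fcgr3 had 0.618 and 0.657 reads for each Fcer1g read with LD-F1 EVs, 0.799 and 0.833 with LD-F1_b EVs, and 1.09 and 1.09 with PBS. The 3 groups did not overlap in this ratio. The share of gene pairs that separate so was not computed, for this ratio or for those below. Among single tested genes, 7.33% lay in the order LD-F1 below LD-F1_b below PBS in every library. For each Fcgr2b read, Fcgr3 had 5.64 and 5.62 reads with LD-F1 EVs, 7.96 and 7.50 with LD-F1_b EVs, and 7.82 and 8.82 with PBS, so the LD-F1 libraries lay apart and the other groups overlapped. The ratio of Fcgr4 to Fcgr2b was 1.20 and 1.18 with LD-F1 EVs, 1.43 and 1.48 with LD-F1_b EVs, and 1.17 and 1.49 with PBS, and the PBS range covered both EV groups. The ratio of Fcgr1 to Fcgr2b was 0.130 and 0.0668 with LD-F1 EVs, 0.114 and 0.110 with LD-F1_b EVs, and 0.102 and 0.193 with PBS.

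**Figure D3:**
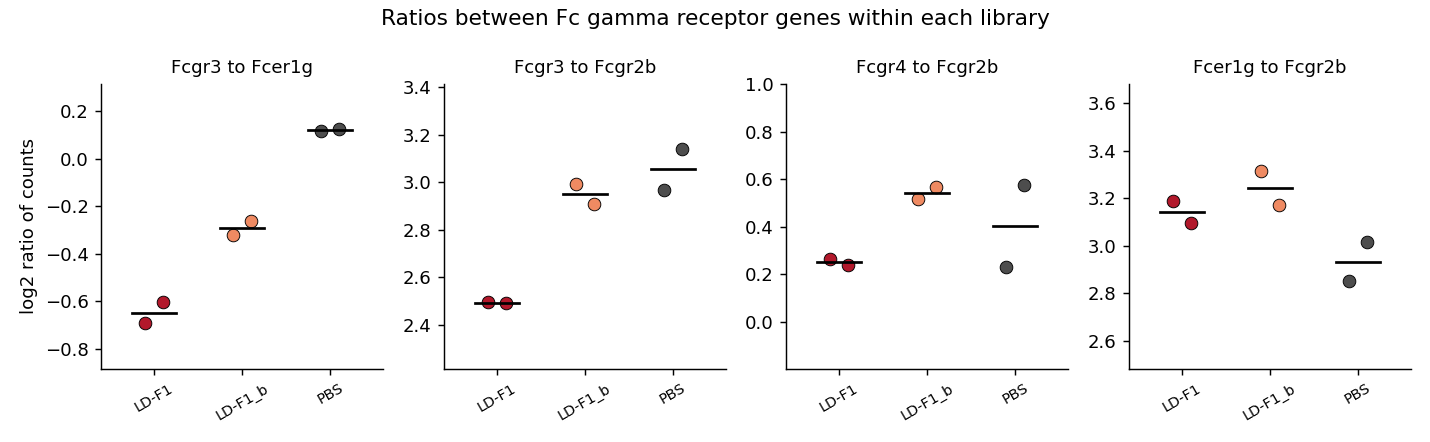
Log2 ratios of counts between members within each library (points; lines, group means), for LD-F1, LD-F1_b and PBS. The ratio of Fcgr3 to Fcer1g averages -0.65 with LD-F1 EVs, -0.29 with LD-F1_b EVs and 0.12 with PBS. Its groups do not overlap, and the share of gene pairs that separate so was not computed. For Fcgr4 to Fcgr2b the PBS range covers both EV groups.

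Summed in RPKM over Fcgr1, Fcgr2b, Fcgr3 and Fcgr4, the receptors came to 169 and 177 with LD-F1 EVs, 220.3 and 216 with LD-F1_b EVs, and 246.5 and 255 with PBS. Fcgr3 made up most of that sum, 73.3% and 73.9% with LD-F1 EVs, 77.1% and 75.5% with LD-F1_b EVs, and 79.7% and 77.9% with PBS. Fcgr4 made up 21.6% and 21.5% with LD-F1 EVs, 19.2% and 20.7% with LD-F1_b EVs, and 16.5% and 18.2% with PBS. The sum was lowest in the LD-F1 libraries, and its 3 groups did not overlap. This order largely repeats that of Fcgr3, and 7.33% of tested genes showed it in every library. The level of Fcer1g over this sum was 2.35 and 2.23 with LD-F1 EVs, 1.92 and 1.80 with LD-F1_b EVs, and 1.46 and 1.42 with PBS.

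Downstream of the activating receptors, some genes were called higher and some lower. Of 33 listed genes of activating signalling, 32 were tested, and 6 rose and 4 fell with LD-F1 EVs against PBS (median log2 fold change -0.02, against 0.01 over all tested genes). With LD-F1_b EVs 6 rose and 3 fell. Beside these counts, and those of the lists that follow, stand 11.4% of all tested genes called higher and 9.87% called lower with LD-F1 EVs, and 6.44% called higher and 4.54% called lower with LD-F1_b EVs. Lcp2, the adaptor SLP-76, rose by 0.90 ± 0.08 with LD-F1 EVs (edgeR adjusted p = 1.2e-05) and by 0.71 ± 0.08 with LD-F1_b EVs (edgeR adjusted p = 0.000199). Bcl10 and Malt1, partners in the complex that activates NF-kB behind CARD9, rose by 0.74 ± 0.10 and 0.94 ± 0.12 with LD-F1 EVs. The kinase gene Src rose by 1.33 ± 0.30 with LD-F1 EVs (edgeR adjusted p = 0.00757) and stood at 0.82 ± 0.31 with LD-F1_b EVs (edgeR adjusted p = 0.115). Pld1, a phospholipase D, rose by 0.62 ± 0.16 with LD-F1 EVs and by 0.73 ± 0.16 with LD-F1_b EVs.

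Among the genes that fell were Pik3cd, the catalytic subunit of PI3K delta (-0.70 ± 0.12 with LD-F1 EVs, edgeR adjusted p = 0.00113; -0.53 ± 0.12 with LD-F1_b EVs, adjusted p = 0.0110), and Plcg2, a phospholipase C (-0.27 ± 0.09 with LD-F1 EVs, adjusted p = 0.0388). Syk, the kinase that docks on the gamma chain, was at 0.11 ± 0.10 with LD-F1 EVs (edgeR adjusted p = 0.499) and -0.01 ± 0.10 with LD-F1_b EVs (adjusted p = 0.967). Syk falls outside the rule for named genes and is given for its place in the pathway. Lyn, a kinase that phosphorylates these receptors, stands in the table under an identifier without a symbol (MGP_C57BL6NJ_G0028436) and was found by the description of its protein. It rose by 0.39 ± 0.09 (edgeR adjusted p = 0.00599) with LD-F1 EVs and by 0.43 ± 0.09 (adjusted p = 0.00649) with LD-F1_b EVs, and is not in the count of the list. Another entry with the Lyn description, an assembled locus with 42 to 66 counts, was not called. It stood at 0.01 ± 0.30 with LD-F1 EVs and 0.05 ± 0.29 with LD-F1_b EVs. Without LD-F1 replicate 2, 10 of the list rose with LD-F1 EVs. Those that fell numbered 7 without LD-F1 replicate 1 and 2 without PBS replicate 1 or 2. For LD-F1_b, 2 or 3 rose and 0 fell without a replicate of LD-F1_b or of PBS.

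Of 28 listed effectors of phagocytosis, mostly of the actin machinery, 25 were tested, and 7 rose and 5 fell with LD-F1 EVs (median 0.10), while 4 rose and 0 fell with LD-F1_b EVs (median 0.11). Actr3, a listed gene, has no entry by symbol. An entry on chromosome X with its protein description rose by 0.67 ± 0.10 with LD-F1 EVs (edgeR adjusted p = 0.000479). With LD-F1_b EVs that entry rose by 0.44 ± 0.10 (edgeR adjusted p = 0.0142). It is not in the count of the list. Myo10, a myosin of filopodia and pseudopods, rose by 0.60 ± 0.11 (edgeR adjusted p = 0.00217) with LD-F1 EVs and by 0.54 ± 0.11 (adjusted p = 0.00870) with LD-F1_b EVs. Myo1e, a myosin found at phagocytic cups, rose by 0.45 ± 0.10 and 0.48 ± 0.10, and Coro1a, an actin-binding protein of the phagocytic cup, by 0.46 ± 0.12 and 0.40 ± 0.12, with LD-F1 and LD-F1_b EVs in that order. Pak1, a kinase downstream of Rac, fell by 0.55 ± 0.10 with LD-F1 EVs (edgeR adjusted p = 0.00248), Myo1f by 0.45 ± 0.08 and the adaptor gene Crkl by 0.44 ± 0.11. Cfl1, the actin-severing protein cofilin and the most abundant of the list by symbol, rose by 0.40 ± 0.10 with LD-F1 EVs. These counts were sensitive to single libraries. With LD-F1 EVs, 1 gene rose without PBS replicate 1, 3 without PBS replicate 2 and 12 without LD-F1 replicate 1, while 2 fell without either PBS replicate and 8 without LD-F1 replicate 1. With LD-F1_b EVs, 0 or 1 rose without a replicate of LD-F1_b or of PBS, and 9 rose and 5 fell without either LD-F1 replicate.

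Of 29 listed genes of inhibitory signalling 24 were tested, and 6 rose and 8 fell with LD-F1 EVs (median -0.08). With LD-F1_b EVs 6 rose and 4 fell (median -0.11). Inpp5d, the gene of SHIP1 through which FcγRIIB acts, fell by 0.52 ± 0.10 with LD-F1 EVs (edgeR adjusted p = 0.00190) and by 0.42 ± 0.09 with LD-F1_b EVs (adjusted p = 0.0130). It falls outside the rule for named genes and was chosen for its role beside Fcgr2b after its values were seen. Among inhibitory receptors, Pilra rose by 1.37 ± 0.11 and 1.12 ± 0.11, Siglece by 1.41 ± 0.20 and 0.88 ± 0.20, and Clec12a by 0.90 ± 0.13 and 0.78 ± 0.13 with LD-F1 and LD-F1_b EVs in that order. Clec4a2 fell by 1.31 ± 0.17 and 0.88 ± 0.16, and Cd33 by 1.16 ± 0.13 and 0.83 ± 0.12 in the same order. The phosphatase gene Ptpn22 rose by 0.69 ± 0.09 with LD-F1 EVs and by 0.68 ± 0.09 with LD-F1_b EVs. Sirpa, the receptor of the CD47 signal that restrains phagocytosis, fell by 0.37 ± 0.08 with LD-F1 EVs (edgeR adjusted p = 0.00547) and stood at -0.22 ± 0.08 with LD-F1_b EVs (adjusted p = 0.102). The Clec4, Siglec and Sirp genes have close relatives, and stretches shared between them were not computed, so their counts are uncertain. Without a replicate of LD-F1_b or of PBS, 4 or 5 of the list fell with LD-F1 EVs, and 3 or 4 rose and 1 or 2 fell with LD-F1_b EVs. Without either LD-F1 replicate, 7 fell with LD-F1_b EVs.

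The gamma chain also serves other receptors. A list of 27 genes held receptors that use it or its relative Tyrobp, and the adaptor genes Tyrobp and Hcst. Of the 27, 14 were tested, and 6 rose and 0 fell in each comparison with PBS (medians 0.25 with LD-F1 EVs and 0.35 with LD-F1_b EVs). Of all tested genes, 11.4% were called higher with LD-F1 EVs and 6.44% with LD-F1_b EVs. Clec4e, which encodes Mincle, a receptor for glycolipids of fungi and mycobacteria, had 9185 and 8767 counts with LD-F1 EVs, 6929 and 7004 with LD-F1_b EVs, and 3658 and 3684 with PBS. It rose by 1.48 ± 0.09 with LD-F1 EVs (edgeR adjusted p = 3.58e-07) and by 1.04 ± 0.09 with LD-F1_b EVs (adjusted p = 1.33e-05). It was lower in LD-F1_b than in LD-F1 by edgeR (-0.44 ± 0.08, adjusted p = 0.0480), the 1 call of the list in that comparison. The list had 0 calls there with library totals, with a stricter filter on low counts, with only the compared groups or a replicate block in the fit, and without a replicate of LD-F1_b or of PBS. Clec4n, which encodes Dectin-2, a receptor for fungal mannans, rose by 0.83 ± 0.13 and 0.93 ± 0.13 with LD-F1 and LD-F1_b EVs in that order. Clec4d, the partner of Mincle, rose by 0.69 ± 0.10 and 0.56 ± 0.10, and Tarm1 by 1.34 ± 0.18 and 0.96 ± 0.19, in the same order. Trem3 rose by 0.81 ± 0.24 with LD-F1 EVs, and Cd300ld rose by 0.41 ± 0.11 with LD-F1_b EVs. Tyrobp itself was at -0.02 ± 0.10 with LD-F1 EVs (edgeR adjusted p = 0.928) and 0.08 ± 0.10 with LD-F1_b EVs (adjusted p = 0.710). For LD-F1_b, 2 to 4 of these genes rose without a replicate of LD-F1_b or of PBS.

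**Figure D4:**
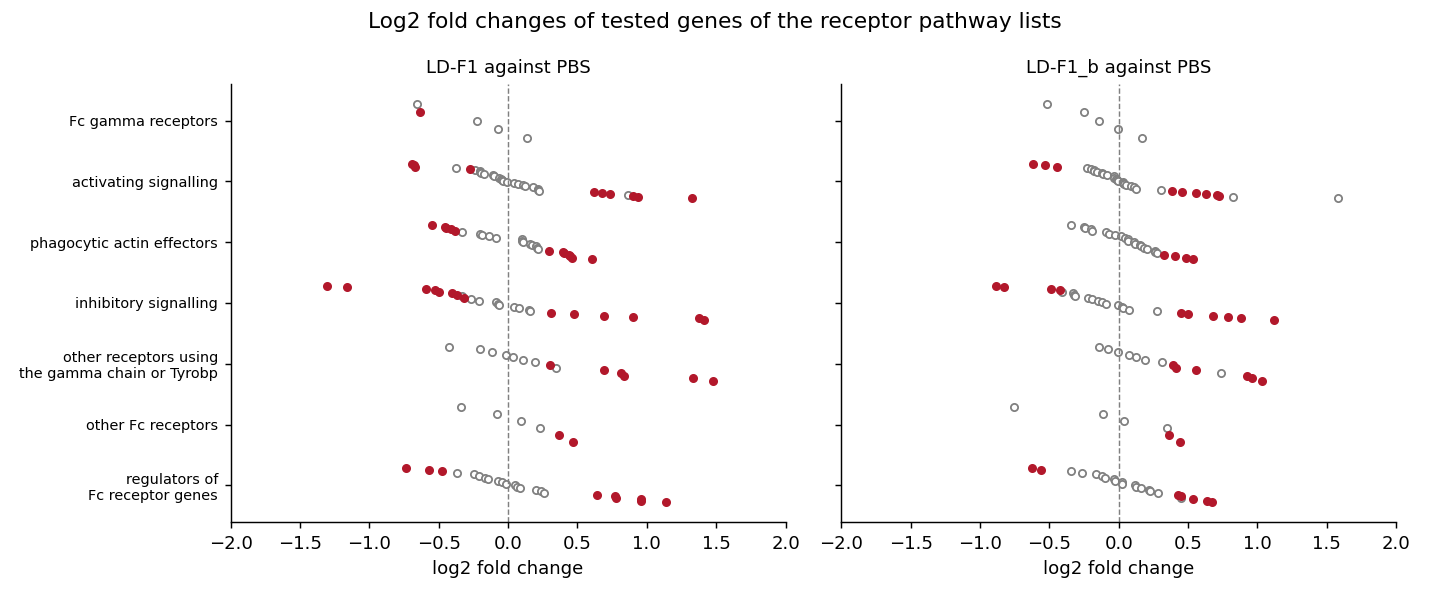
Log2 fold changes of the tested genes of the Fc gamma receptors and of 6 lists of their pathway (points), for LD-F1 against PBS and LD-F1_b against PBS; filled points are called at an edgeR adjusted p under 0.05. Genes of activating and inhibitory signalling lie on both sides of 0, and the called receptors that use the gamma chain or Tyrobp lie above it.

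A list of other Fc receptors and their homologues held 17 names, not all of them of such receptors. Of these names 6 were tested, and 2 rose and 0 fell in each comparison with PBS. B2m, the light chain of the neonatal Fc receptor and of MHC class I, rose by 0.47 ± 0.09 (edgeR adjusted p = 0.00314) with LD-F1 EVs and by 0.36 ± 0.09 (adjusted p = 0.0254) with LD-F1_b EVs. Fcrl1, an Fc receptor homologue known from B cells, rose by 0.37 ± 0.11 (edgeR adjusted p = 0.0303) and by 0.44 ± 0.11 (adjusted p = 0.0203) in the same comparisons. Fcgrt, the heavy chain of the neonatal receptor, was at -0.34 ± 0.30 with LD-F1 EVs and -0.75 ± 0.30 with LD-F1_b EVs, and did not pass by edgeR (adjusted p = 0.468 and 0.145). Without a replicate of LD-F1_b or of PBS, 0 or 1 of these genes rose in each comparison with PBS.

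Among 26 regulators known for Fc receptor genes 23 were tested, and 6 rose and 3 fell with LD-F1 EVs (median 0.05), while 5 rose and 2 fell with LD-F1_b EVs (median 0.12). Irf1, an interferon regulatory factor, rose by 0.96 ± 0.17 with LD-F1 EVs (edgeR adjusted p = 0.00198) and stood at 0.45 ± 0.18 with LD-F1_b EVs (adjusted p = 0.139). Irf9, Cebpb and Ets2, all genes of transcription factors, rose by 0.78 ± 0.12, 1.14 ± 0.16 and 0.77 ± 0.09 with LD-F1 EVs and by 0.53 ± 0.12, 0.64 ± 0.16 and 0.68 ± 0.09 with LD-F1_b EVs. Tgfbr2, a receptor of TGF-beta, fell by 0.73 ± 0.11 with LD-F1 EVs and by 0.56 ± 0.11 with LD-F1_b EVs. Spi1, the gene of PU.1, was at 0.20 ± 0.09 with LD-F1 EVs (edgeR adjusted p = 0.134) and 0.16 ± 0.09 with LD-F1_b EVs (adjusted p = 0.314). Links between these regulators and the motif matches before Fcgr1, Fcgr3 and Fcgr4 were not tested. With LD-F1 EVs, 6 of the regulators fell without LD-F1 replicate 1, 5 without LD-F1 replicate 2 and 6 with library totals. With LD-F1_b EVs, 1 or 2 rose and 0 to 2 fell without a replicate of LD-F1_b or of PBS, and 4 fell without either LD-F1 replicate.

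Fcgr2b, Fcgr4, Fcgr3 and Fcer1g lie within one stretch of chromosome 1. Within 300 kb of these members 26 other genes were tested (median log2 fold change 0.05 with LD-F1 EVs). Of all tested genes, 11.4% were called higher and 9.87% lower with LD-F1 EVs, where 0 of the 26 rose and 2 fell. These were Pcp4l1 (-0.92 ± 0.15, edgeR adjusted p = 0.000769) and Tomm40l (-0.45 ± 0.14, adjusted p = 0.0343), both between Fcgr3 and Fcer1g. With LD-F1_b EVs 0 of the 26 were called by edgeR, against 11% of all tested genes. Around Fcgr1 on chromosome 3, 0 of 12 tested neighbours were called in any comparison. Of all tested genes, 21.2% were called for LD-F1 against PBS, 11% for LD-F1_b against PBS and 0.424% between the EV groups. Entries that overlap the members held few counts. An antisense entry over Fcgr2b (Gm38204) had 5 counts over the 6 libraries, an snRNA entry over Fcgr4 (Gm26110) had 6, and a miRNA entry over Fcgr3 (Gm27844) had 0. The Fcgr3 entry spans 44925 bases in the table and 14747 in RefSeq, while the exon length of the table is 1736 bases.

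The genes whose profile over the 6 libraries lay closest to that of Fcgr3 were Gins1, Entpd5, Top2a, Mcm6 and Rassf5, by the root mean square difference of centred log2 CPM (0.0455 to 0.0528, of 8919 genes with a mean of at least 5 CPM). The profile of Fcgr3 itself has a root mean square of 0.263 on that scale. All 5 fell with LD-F1 EVs against PBS, by 0.57 to 0.67. Values near that of Fcgr3 follow from their selection by closeness to it over the same libraries. The gene closest to Fcgr4 was BC004004 (0.0389), that closest to Fcgr2b was Sord (0.0266) and that closest to Fcer1g was Antxr2 (0.0183). Fcgr1, with its wide spread between replicates, had no profile nearer than that of Serac1 (0.152).

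Of 7 tested macrophage markers 1 rose and 2 fell with LD-F1 EVs (median log2 fold change -0.16), and 1 rose and 1 fell with LD-F1_b EVs (median -0.03), against 21.2% and 11% of all tested genes called in these comparisons. The 1 that rose in both was Lpl, the gene of lipoprotein lipase. The summed level of the list was 4745 to 4809 CPM with LD-F1 EVs, 5005 to 5244 with LD-F1_b EVs and 3979 to 4140 with PBS. The sum lay above both PBS libraries in every EV library, while the medians lay below 0. The part of these values in the lower Fcgr3 level was not tested. Summed neutrophil markers were at 3.48 to 3.75 CPM with LD-F1 EVs, 3.69 to 3.73 with LD-F1_b EVs and 2.61 to 2.90 with PBS, and those of dendritic cells at 11.4 to 11.6, 8.71 to 9.87 and 5.92 to 7.63 CPM in the same order. Of 5 tested dendritic cell markers 1, Xcr1, rose and 0 fell in each comparison with PBS, with medians of -0.90 with LD-F1 EVs and -0.24 with LD-F1_b EVs, below 0 while the sums lay above those with PBS. Lpl and Xcr1 were chosen after their values were seen. NK and T cell markers summed to at most 0.261 CPM and those of mast cells and basophils to at most 0.749 CPM in any library.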

How the data were processed

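The authors deposited raw read counts per gene of 6 libraries. The tools in the submitters' processing notes are featureCounts 1.5.0-p3, StringTie 1.3.3b, HISAT2 2.0.5 and fastp, and the build is GRCm39. The gene identifiers are those of the C57BL/6NJ annotation for 41096 entries, and the last gene on chromosome 1 ends at 208807027, beyond that chromosome in GRCm39, so table positions are taken as C57BL/6NJ and were not mixed with the GRCm38 positions of sequences. Strand and multi-mapping settings: not given in the sources used here.

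Counts were tested in edgeR 4.0.16 (R 4.3.3), by its quasi-likelihood F test, after filterByExpr and TMM scaling (factors 0.965 to 1.04), in 1 fit of 6 libraries with 3 residual degrees of freedom, for 3 comparisons. The threshold for a call was a p of 0.05 after Benjamini-Hochberg adjustment over 12740 tested genes, and "rose", "fell", "higher" and "lower" are used for called genes. SEs and 95% intervals were computed back from the test. A floor of 3 counts is 0.196 to 0.219 CPM and covers counting error only, as the labels' protocols name no molecular identifiers. Coding sequences came from GENCODE M21 (GRCm38) and promoters from RefSeq (GRCm38.p6), matched by symbol for all 5 members.

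The members and lists were chosen with earlier results of these data known. Named genes are the members, the called genes of each list (at most the 6 largest by log2 fold change, plus the most abundant), neighbours within 300 kb and the 5 closest profiles; a gene that falls under this rule is not reported here. Alternatives were other scalings, filters, DESeq2 1.42.0, a fit of the compared groups alone, a replicate block, each library left out, and other transcript lengths for RPKM, which were added after the data were seen.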

Additional observations from a re-analysis of the deposited data

How the results depend on the processing

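The lower Fcgr3 level with LD-F1 EVs was called in every setting, with adjusted p from 8.25e-10 (DESeq2) to 0.00517; without 1 library at a time its log2 fold change ran from -0.68 to -0.60. Of 195 member values under the alternatives, 177 kept direction and side of the threshold, 13 became called and 5 changed sign, none of these called in either fit. Calls gained with library totals alone were Fcgr4 for LD-F1 against PBS (-0.33) and Fcgr3 for LD-F1_b against PBS (-0.32). With only the compared groups fitted, Fcgr3 (-0.25) and Fcer1g (0.17) were called for LD-F1_b against PBS. Fcgr3 between the EV groups was called without the filter on low counts (0.39) and by DESeq2 (0.39). The causes were not tested.

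Leaving out 1 library at a time, the log2 fold change for LD-F1 against PBS ran from -1.15 to -0.22 for Fcgr1 and from -0.15 to 0.00096 for Fcgr2b. For LD-F1_b against PBS it ran from -0.28 to -0.22 for Fcgr3, from -0.10 to 0.090 for Fcgr4 and from 0.11 to 0.22 for Fcer1g. For LD-F1_b against LD-F1 it ran from -0.24 to 0.63 for Fcgr1, from 0.34 to 0.43 for Fcgr3 and from -0.025 to 0.090 for Fcer1g. Where 1 library of a group remained, it was assumed to vary like the other groups.

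Genes called numbered 2707 for LD-F1 against PBS, 1398 for LD-F1_b against PBS and 54 for LD-F1_b against LD-F1, and without 1 library 1213 to 4497, 401 to 3142 and 0 to 1152. With only the compared groups they numbered 3098 for LD-F1_b against PBS and 33 for LD-F1_b against LD-F1, where DESeq2 called 96 and no filter 185. With library totals the share of calls that were higher was 33.6% for LD-F1 and 41.7% for LD-F1_b, against 53.5% and 58.7% with TMM. Deviations of same-numbered replicates correlated at 0.084 (LD-F1 with LD-F1_b), -0.023 (LD-F1 with PBS) and 0.0036 (LD-F1_b with PBS), so the numbers were not treated as pairs. The fit with a replicate block called 2706, 1357 and 52 genes in the order above and changed no call of a member. List counts moved by over 1.5 times in 109 of 468 recomputed values. Ratios within a library do not depend on these settings.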

Other observations

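Ighm had 556 and 652 counts with LD-F1 EVs, 711 and 689 with LD-F1_b EVs, and 582 and 682 with PBS, while Ms4a1, another B cell marker, had 0 counts in every library. Its log2 fold change was 0.12 ± 0.11 for LD-F1 against PBS (edgeR adjusted p = 0.500) and 0.26 ± 0.11 for LD-F1_b against PBS (edgeR adjusted p = 0.173). Fcrl1, also known from B cells, had 658 and 641 counts with LD-F1 EVs, 734 and 706 with LD-F1_b EVs, and 541 and 607 with PBS.

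Itgam, a macrophage marker, had 0 to 4 counts under its own symbol and 2056 to 2460 under a neighbouring identifier with the same protein description. The log2 fold change of that entry was 0.24 ± 0.09 for LD-F1 against PBS (edgeR adjusted p = 0.0751) and 0.28 ± 0.09 for LD-F1_b against PBS (edgeR adjusted p = 0.0675). Lyz2 stood on an assembled locus with 37846 to 49597 counts.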
